A study of Mus musculus with 12 samples.

Results

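Polyadenylated RNA of interscapular brown adipose tissue was compared between mice with 2 copies of the Ucp1-CreEvdr transgene (2xUcp1-CreEvdr in the labels) and wild type mice, with 2 libraries in each group and 4 of the series' 12 libraries in all. It was built on a bacterial artificial chromosome that places Cre recombinase under the regulatory region of Ucp1, so Cre is made where that promoter is active, mainly in brown adipocytes. Mice were 6 weeks old, bred in house, fed chow, housed at room temperature and killed in the morning with no treatment. The 2 brown libraries of mice with 1 copy (1xUcp1-CreEvdr) entered the same fit and are given beside the comparison. The labels name no sex, no sampling hour and no mouse for a library, and p-values here speak only of the spread between libraries, which may be technical.

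Brown adipocytes burn fatty acids and glucose for heat. Uncoupling protein 1, the product of Ucp1, lets protons cross the inner mitochondrial membrane without ATP being made, and noradrenaline switches the process on through cyclic AMP, which adenylyl cyclases make and phosphodiesterases break down. The depot also holds a dense bed of capillaries, a collagen matrix, nerves and immune cells, and it lies against skeletal muscle of the upper back. In such bulk RNA, fewer cells of a type and less RNA per cell cannot be told apart.

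Total counts of the 6 brown libraries ran from 15679884 to 31814056, the highest in wild type replicate 2. Values of single genes below are CPM (counts per 1000000 reads counted) scaled with TMM factors, unless another scale is named. Sums of a list are CPM of the library total without TMM factors, except where TMM scaling is named. Replicates correlated at 0.982 in wild type and 0.972 with 2 copies (Pearson, log2 CPM, across genes), and they differed by more than sampling noise. Ucp1 stood between 4390 and 12100 CPM in all 6 libraries, as did the brown adipocyte gene Cidea between 1760 and 2110 CPM.

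Wild type libraries carried more RNA of skeletal muscle than the 2-copy libraries. Genes of 6 muscle lists took 0.498% and 0.238% of all counts in the 2 wild type libraries, against 0.0593% and 0.0574% with 2 copies and 0.0615% and 0.0641% with 1 copy. The summed fast muscle fibre list reached 2350 and 1020 CPM of the library total in wild type, 39.2 and 51.7 with 2 copies, and 69.3 and 77.9 with 1 copy. After TMM scaling wild type replicate 1 held 2.35 times as much of this list as replicate 2, while the 4 transgenic libraries stood far below both. Slow muscle fibre genes summed to 133 and 127 CPM in wild type and 86.7 and 80.0 with 2 copies. The list of myogenic factors and satellite cell genes did not follow, at 23.7 and 20.5 CPM in wild type and 21.7 and 16.5 with 2 copies. Muscle RNA and the absence of the transgene cannot be told apart across these groups. For that reason a gene is called a muscle gene here where it is on one of the 6 lists, or where it carries a mark from the white adipose libraries of mice with 1 copy, of which the first also held muscle RNA. The mark was given to 573 genes that were higher there by at least 2 on the log2 scale. It is not specific to muscle: it also took Cre and 4 of the 26 thermogenic genes (Ucp1, Dio2, Elovl3 and Slc27a2), and it took 1 of the 10 tested slow fibre genes. Muscle gene below means only the lists and this mark, and a gene called no muscle gene may still be made in muscle.

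**Figure D1:**
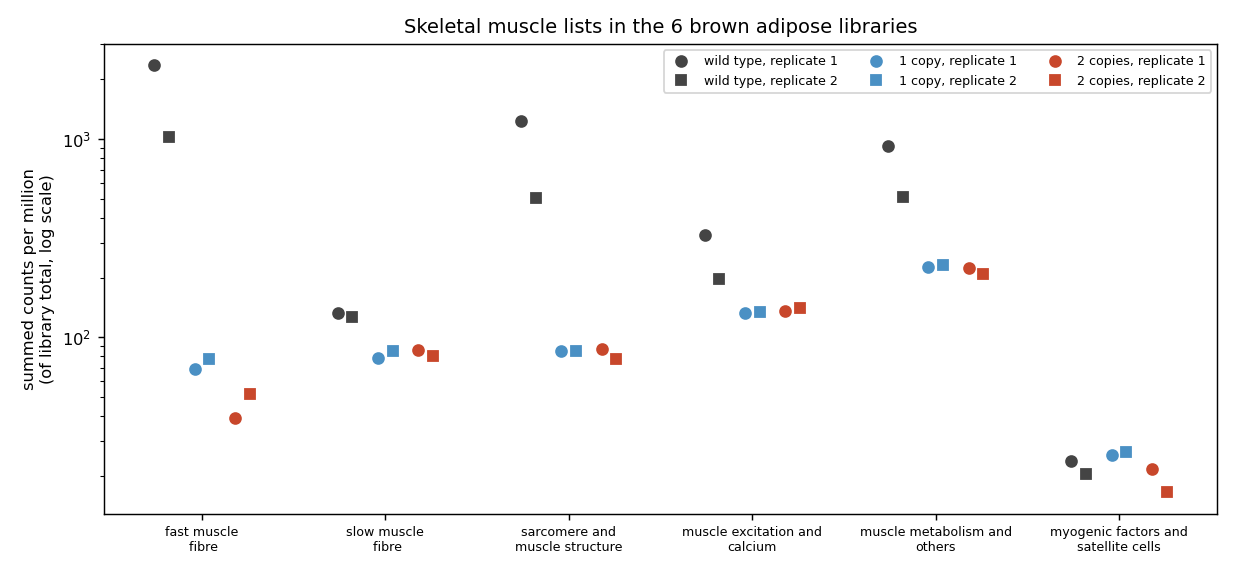
Summed CPM of 6 skeletal muscle lists (x axis) on a log scale in the 6 brown adipose libraries; circles are replicate 1, squares replicate 2, and colours are the genotypes. The fast muscle fibre list stands at 2350 and 1020 in wild type and below 100 in the 4 transgenic libraries, while the myogenic factor list lies between 16.5 and 26.4 in all 6.

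Of 13414 genes tested, 173 (1.29%) differed between 2 copies and wild type with edgeR's quasi-likelihood test at a Benjamini-Hochberg adjusted p of 0.05. Of these 63 were higher with 2 copies (0.47%) and 110 lower (0.82%). Among the 110 lower genes, 41 were on a muscle list, 16 carried the mark only and 53 were neither, which is 0.403% of the 13163 genes that were no muscle gene. Among the 63 higher genes, 62 were neither and 1, Fbp2, was on a muscle list. None of the 173 overlapped between the 2 wild type and the pair of 2-copy libraries, but the same held for 47.9% of all genes tested. At an unadjusted p under 0.05, 9.14% of all genes were higher and 9.15% lower, and the counts of list members at that threshold below stand against these shares. The number of calls rested on single libraries: it was 8 and 20 without the first or second 2-copy library, 21 and 23 without the first or second 1-copy library, and 334 and 240 without the first or second wild type library. It was 10 in a fit of the 4 compared libraries alone and 683 with the DESeq2 Wald test. With the mean of the fast muscle fibre list as a covariate it was 4, but that covariate is nearly the wild type group itself. With muscle genes removed before the fit the number was 95, of which 49 were higher and 46 lower.

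**Figure D2:**
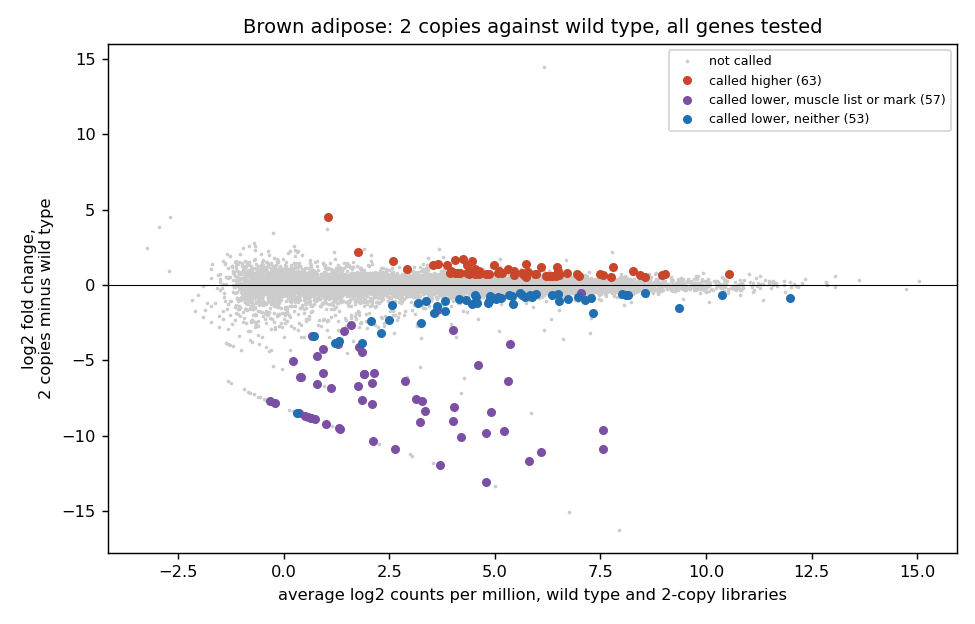
Log2 fold change of 2 copies minus wild type (y axis) against average log2 CPM over the compared libraries (x axis) for 13414 genes; grey points were not called. The 63 genes called higher lie between 0.54 and 4.5, while the 57 lower muscle genes reach down to -13.08.

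The transgene itself was read in both 2-copy libraries and in neither wild type library. Cre had 3243 and 1770 counts with 2 copies and 0 and 0 in wild type, at least 2350-fold higher when 3 counts are allowed over the wild type group (adjusted p = 0.0575, edgeR). With 1 copy Cre stood at 37.9 and 26.0 CPM, against 194 and 91.8 with 2 copies. Ucp1 on chromosome 8 (mm10, 83290348 to 83298456) had 7470 and 5990 CPM in wild type and 8250 and 12100 with 2 copies, a log2 difference of 0.60 (SE 0.25, adjusted p = 0.276, edgeR). Its groups did not overlap, but the difference did not pass the test.

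Tbc1d9, whose TBC domain is of the kind that acts on Rab GTPases, lies next to Ucp1 (83165352 to 83272940) and rose with 2 copies. It had 8.04 and 9.14 CPM in wild type, 14.2 and 13.4 with 1 copy and 27.2 and 31.0 with 2 copies. The log2 rise was 1.76 (SE 0.15, adjusted p = 0.00802, edgeR), and the difference from 1 copy passed as well (adjusted p = 0.0188). Elmod2 lies on the other side of Ucp1 (83312632 to 83332490) and is known as a GTPase-activating protein for Arf-family GTPases. Elmod2 had 35.0 and 65.4 CPM in wild type and 159 and 154 with 2 copies. Its log2 difference of 1.63 (SE 0.28) missed the threshold (adjusted p = 0.071, edgeR), with wild type libraries that differed widely. The higher calls were not limited to this chromosome: 5 of its 723 tested genes were called higher (0.692%), beside 0.47% of all genes tested. Chromosomes 10 and 11 had the most higher calls, with 7 of 659 (1.06%) and 7 of 1120 (0.625%). The share ran from 0% on chromosomes 18 and X to the 1.06% of chromosome 10.

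Skeletal muscle genes made up the deepest falls. Of the fast fibre list 10 of 15 members fell, beside 0.82% of all genes tested that were called lower. Its median log2 difference was -9.07, beside a median over all genes tested of -0.000699. The slow fibre list had 5 of 10 tested members lower (median -4.10), the sarcomere list 10 of 27 (median -6.14), the excitation and calcium list 6 of 15 (median -2.53) and the muscle metabolism list 10 of 24 (median -4.56), while neither of the 2 tested myogenic factor genes was called. Pvalb, the calcium buffer of fast fibres, had 64.0 and 45.6 CPM in wild type and 0 in all 4 transgenic libraries, at least 657-fold lower with 2 copies (adjusted p = 0.00802, edgeR). Myh7, the slow myosin heavy chain, had 30.3 and 20.8 CPM in wild type and again 0 in the other 4 libraries, at least 307-fold lower (adjusted p = 0.00802, edgeR). Both genes were therefore seen in wild type only. They passed the low count filter through wild type alone, so only a fall could be found for them. The same holds for other members of the muscle lists, such as Trdn and Art1. For genes at or near 0 with 2 copies the log2 value is set largely by the fit and is no measured size. The medians of the muscle lists rest in part on such genes.

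Titin, the giant spring of the sarcomere encoded by Ttn, had 155 and 70.8 CPM in wild type and 0.0599 and 0 with 2 copies (log2 difference -11.69, SE 0.86, adjusted p = 0.0241, edgeR). Tnnt3, fast troponin T, had 182 and 90.6 CPM against 0.0599 and 0.0519 (adjusted p = 0.0166, edgeR). Atp2a1, the calcium pump of the fast fibre's sarcoplasmic reticulum, had 543 and 217 CPM against 0.419 and 0 (adjusted p = 0.042, edgeR). In each of these genes wild type replicate 1 was at least 2 times replicate 2, as in the summed list. Apobec2, a muscle-enriched member of the cytidine deaminase family, had 15.6 and 8.64 CPM in wild type and 0 with 2 copies, at least 145-fold lower (adjusted p = 0.0182, edgeR).

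A call did not track abundance among the muscle genes. Myh4, the fastest myosin heavy chain, had 677 and 298 CPM in wild type and 0 in the other 4 brown libraries, yet its adjusted p was 0.134. Ckm, muscle creatine kinase, had 305 and 126 CPM against 0 and an adjusted p of 0.154. These genes are examples chosen after their values were seen. Fbp2, a fructose-1,6-bisphosphatase of muscle that is on the metabolism list, went the other way: 15.3 and 14.4 CPM in wild type, 12.6 and 15.9 with 1 copy, 34.1 and 28.5 with 2 copies (log2 rise 1.07, SE 0.16, adjusted p = 0.0319, edgeR).

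Promoters of the fallen muscle genes were searched for short motifs, among them the E-box CAGCTG, which reads the same on both strands and is of the kind that myogenic factors such as MyoD bind. It was found in 24 of the 43 lower muscle genes with a promoter in the RefSeq table (55.8%, from 57 such genes). The motif occurred in 13 of 54 higher genes (24.1%, from 63), in 8 of 37 lower genes that were no muscle gene (21.6%, from 53), and in 18.3% of all 27025 genes of that table. The lower muscle genes were chosen through the muscle lists and the mark. The share among muscle genes that were not called was not counted, so the 55.8% cannot be tied to the fall. A gene counted where any of its listed windows, from 250 bases before to 50 after a start, held the letters. It was 1 of 12 motifs searched on both strands and the one shown because its shares differed most. The others were the E-box CACGTG, the hypoxia element core TACGTG, the D-box TTATGTAA, the cyclic AMP element TGACGTCA, the nuclear receptor site TGACCTTTG, the ETS-type site GGAAGTG, the TATA box TATAAA and a pair of MEF2-type sites of 10 letters. The A/T-rich runs TATTTATA and the shorter ATTTATA, which lies within it and within one of the MEF2-type sites, completed the search. The promoters of 4 genes are shown with CAGCTG in capitals, from RefSeq on GRCm38.p6 (mm10). Each is the 250 bases before the first listed start of the gene, 5′ to 3′ on the gene's strand. For Atp2a1 this start lies within the span of the gene, which ends at 126463103, so the stretch overlaps the gene. Atp2a1 and Acta1, the skeletal muscle actin gene, are muscle genes that fell, and Tbc1d9 is a gene that rose and holds the same letters. Pvalb, the deepest fall among the named muscle genes, does not hold them in this stretch.
Atp2a1 (chr7:126463074-126463323, minus strand): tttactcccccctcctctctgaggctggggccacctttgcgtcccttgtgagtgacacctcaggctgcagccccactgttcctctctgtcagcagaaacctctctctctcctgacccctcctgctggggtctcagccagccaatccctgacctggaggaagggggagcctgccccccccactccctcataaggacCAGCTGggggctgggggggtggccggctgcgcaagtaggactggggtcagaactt
Acta1 (chr8:123894776-123895025, minus strand): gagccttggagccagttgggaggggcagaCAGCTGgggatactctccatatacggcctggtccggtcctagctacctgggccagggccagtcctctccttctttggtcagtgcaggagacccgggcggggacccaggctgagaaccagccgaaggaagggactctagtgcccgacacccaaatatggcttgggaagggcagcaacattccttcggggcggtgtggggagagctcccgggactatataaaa
Tbc1d9 (chr8:83165102-83165351, plus strand): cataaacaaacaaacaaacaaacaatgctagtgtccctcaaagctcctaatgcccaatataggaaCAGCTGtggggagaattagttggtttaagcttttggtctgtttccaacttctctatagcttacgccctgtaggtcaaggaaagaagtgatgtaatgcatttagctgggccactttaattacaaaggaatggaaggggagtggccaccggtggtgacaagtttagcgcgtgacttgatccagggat
Pvalb (chr15:78206401-78206650, minus strand): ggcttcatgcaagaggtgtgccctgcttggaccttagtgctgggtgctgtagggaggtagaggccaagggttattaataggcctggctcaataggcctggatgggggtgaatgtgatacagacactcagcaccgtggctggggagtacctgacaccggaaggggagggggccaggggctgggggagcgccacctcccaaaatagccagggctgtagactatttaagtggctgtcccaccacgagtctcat
A match says only that these letters are in the window, and no binding was measured. Acta1 had 567 and 192 CPM in wild type and 0.658 and 0.311 with 2 copies (log2 difference -9.62, SE 0.97, adjusted p = 0.0457, edgeR).

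The falls outside the muscle genes divide by how they moved within wild type. The ratio of wild type replicate 1 to replicate 2 had a median of 2.16 over the 41 lower genes on a muscle list and 2.13 over the 16 with the mark only, near the 2.35 of the summed fast list. Over the 53 lower genes that were neither it was 1.03, over the 62 higher genes that were neither 1.06, and over all genes tested 0.999. However, 8 of the 53 had a ratio of at least 1.5, and they include the deepest falls. These 8 were Alpk2, Alpk3, Usp13, Ddit4l, Rbm24, Smyd1, Pkia and Tmem38a. Of them Alpk2, Alpk3, Usp13, Ddit4l and Rbm24 passed the low count filter through wild type alone, so only a fall could be found for them.

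**Figure D3:**
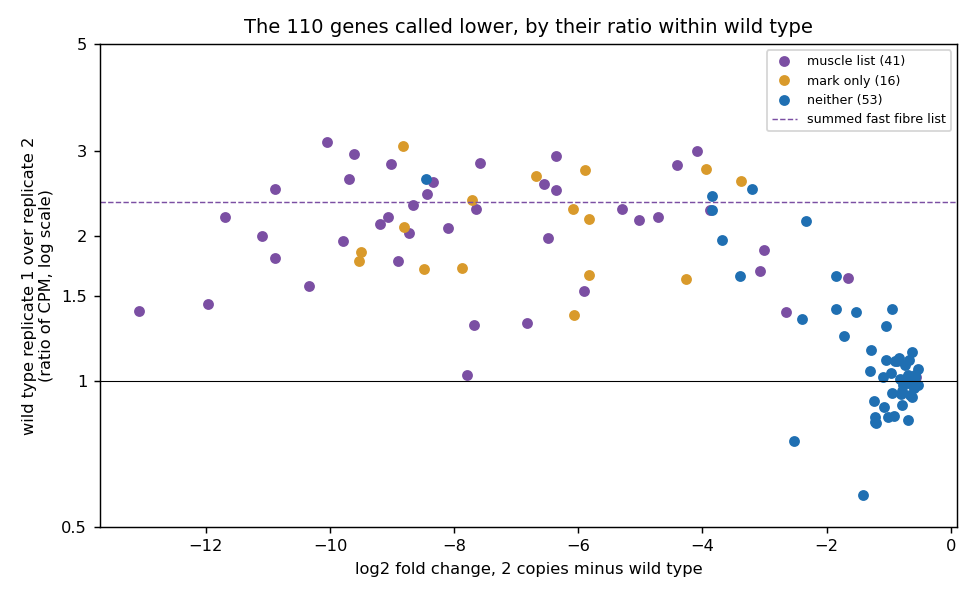
Ratio of CPM in wild type replicate 1 to replicate 2 (y axis, log scale) against the log2 fold change of 2 copies minus wild type (x axis) for the 110 genes called lower; the dashed line is the 2.35 of the summed fast fibre list. Genes on a muscle list have a median ratio of 2.16, while those that are neither have a median of 1.03 and mostly lie near the line at 1.

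Several of these 8 genes are known from striated muscle. Smyd1, a histone methyltransferase of heart and skeletal muscle, had 12.6 and 5.01 CPM in wild type, 1.37 and 1.52 with 1 copy and 0.838 and 1.04 with 2 copies (log2 difference -3.20, SE 0.49, adjusted p = 0.0332, edgeR). Alpk3, a kinase-family protein of muscle cells, had 9.30 and 3.84 CPM in wild type and 0.479 and 0.415 with 2 copies, and Tmem38a, a potassium channel of the sarcoplasmic reticulum, 22.9 and 13.9 against 5.45 and 4.72. With 1 copy Alpk3 stood at the 2-copy level, at 0.437 and 0.410 CPM, while Tmem38a lay between the other groups, at 11.2 and 8.61. Usp13, a deubiquitinase, had 5.76 and 2.55 CPM against 0.359 and 0.208. Ddit4l, an inhibitor of mTOR signalling, had 5.82 and 2.96 against 0.299 and 0.363. Pkia, the protein kinase A inhibitor alpha, had 12.6 and 5.86 against 2.04 and 1.61. All 3 had 1-copy values as low as their 2-copy values. Asb2, a subunit of a ubiquitin ligase known in muscle, fell from 7.76 and 5.74 CPM to 1.20 and 1.35, and Smtnl2, a smoothelin-like protein, from 23.8 and 19.2 to 7.54 and 5.50, both with ratios under 1.5 within wild type. The part of muscle RNA in these genes was not tested.

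For other falls the 1-copy libraries, which held about as little muscle list RNA as the 2-copy libraries, stayed near wild type. Hp, which encodes the haemoglobin-binding plasma protein haptoglobin, had 1140 and 821 CPM in wild type, 847 and 891 with 1 copy, and 319 and 358 with 2 copies. The 2-copy libraries were the lowest of the 6, and the 1-copy libraries lay at the wild type level. The log2 fall was -1.53 against wild type (SE 0.16, adjusted p = 0.0166, edgeR) and was also called against 1 copy (adjusted p = 0.0153). Within wild type the ratio of replicate 1 to replicate 2 was 1.39. With the fast muscle list as a covariate the log2 difference from wild type was 1.42 and not called (adjusted p = 0.51, edgeR). That covariate is nearly the wild type group itself, so this fit cannot separate muscle RNA from genotype. The part of muscle RNA in the fall of Hp was not tested further. Snhg11, a noncoding host gene of small nucleolar RNAs, had 13.5 and 18.0 CPM in wild type, 16.1 and 19.0 with 1 copy, and 1.86 and 3.58 with 2 copies (log2 difference -2.52, SE 0.30, adjusted p = 0.0241, edgeR). It is the deepest fall among the named genes whose 1-copy libraries stayed with wild type (adjusted p against 1 copy 0.0153).

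Car3, carbonic anhydrase 3 of adipocytes and slow muscle, was the most abundant gene that fell. It had 5540 and 5050 CPM in wild type, 4500 and 5630 with 1 copy and 2840 and 2960 with 2 copies (log2 difference -0.87, SE 0.13, adjusted p = 0.0316, edgeR, and 0.0276 against 1 copy). Apoe, the apolipoprotein of lipoprotein uptake, had 1480 and 1780 CPM in wild type, 1450 and 1550 with 1 copy and 1030 and 993 with 2 copies. Its log2 fall was -0.69 (SE 0.11, adjusted p = 0.0375, edgeR), and the difference from 1 copy just missed the threshold (adjusted p = 0.0529). Car3 was the 1 called member of the 18 adipocyte identity genes (0.82% of all genes were called lower), whose median log2 difference was -0.36. At an unadjusted p under 0.05, 0 of them were higher and 5 lower (9.14% and 9.15% of all genes). Adipoq, the adiponectin gene on that list, had 1220 and 1160 CPM against 893 and 858 and was not called (adjusted p = 0.0896).

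Syvn1, the ubiquitin ligase of the endoplasmic reticulum also called Hrd1, had 105 and 95.1 CPM against 61.4 and 64.0, and 67.6 and 64.8 with 1 copy. It was the 1 called gene of 19 tested in the unfolded protein response list (log2 difference -0.68, SE 0.10, adjusted p = 0.0319, edgeR). Of all genes 0.82% were called lower. At an unadjusted p under 0.05 the list had 1 gene higher and 4 lower (9.14% and 9.15% of all genes). The transgenic libraries lay together below wild type for Syvn1. Ndufs7, a core subunit of respiratory complex I, had 439 and 447 CPM in wild type, 404 and 388 with 1 copy and 307 and 309 with 2 copies (log2 difference -0.52, SE 0.09, adjusted p = 0.0404, edgeR). It was 1 of 44 nuclear-encoded respiratory chain genes, of which 16 were lower and 0 higher at an unadjusted p under 0.05 (9.15% and 9.14% of all genes), and the median of the list was -0.19.

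Extracellular matrix genes fell in 3 of 24 tested, beside 0.82% of all genes called lower, and none was higher. Mmp2, a gelatinase that cuts matrix proteins, had 39.4 and 38.7 CPM in wild type, 36.4 and 28.8 with 1 copy and 16.2 and 20.3 with 2 copies (log2 difference -1.09, SE 0.16, adjusted p = 0.0316, edgeR). Lum, the collagen-binding proteoglycan lumican, had 26.6 and 25.7 CPM against 11.4 and 15.3, and Col6a3, a chain of collagen VI, 163 and 116 against 74.3 and 69.9. Each of these 3 genes was lowest in the 2-copy libraries, with the 1-copy libraries between or near wild type. Within wild type the ratio of replicate 1 to replicate 2 was 1.02 for Mmp2, 1.04 for Lum and 1.41 for Col6a3. With the fast muscle list as a covariate the log2 difference of Col6a3 was 2.05 and not called. That covariate is nearly the wild type group itself and cannot separate muscle RNA from genotype. The part of muscle RNA in Col6a3 was not tested further. The list's median log2 difference was -0.47, and 11 of its genes were lower at an unadjusted p under 0.05 (9.15% of all genes). The summed list had 5090 and 4500 CPM in wild type, 4460 and 4090 with 1 copy and 3790 and 4030 with 2 copies, so that single genes moved more than the sum.

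A further pair of matrix genes fell. Lamb1, the laminin beta-1 chain of basement membranes, had 354 and 345 CPM in wild type and 206 and 229 with 2 copies, and with 202 and 231 the 1-copy libraries stood at the 2-copy level (log2 difference from wild type -0.69, SE 0.11, adjusted p = 0.0337, edgeR). Tnc, tenascin C of tendon and remodelling tissue, had 12.9 and 22.3 CPM in wild type, 12.2 and 12.6 with 1 copy and 6.35 and 6.95 with 2 copies (log2 difference -1.41, SE 0.26, adjusted p = 0.0485, edgeR). It was the 1 called gene of 4 tested in the tendon and connective sheath list (0.82% of all genes were called lower). The sum of that list was 23.7 and 28.2 CPM in wild type, 16.8 and 15.2 with 1 copy and 9.17 and 10.1 with 2 copies. Unlike the summed fast fibre list, it was higher in wild type replicate 2 than in replicate 1, and Tnc made up much of it. The part of this list in the matrix result was not tested. Smoc2, a matricellular protein chosen after its values were seen, had 35.4 and 43.3 CPM in wild type, 32.8 and 31.9 with 1 copy and 18.2 and 16 with 2 copies (adjusted p = 0.0182, edgeR).

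**Figure D4:**
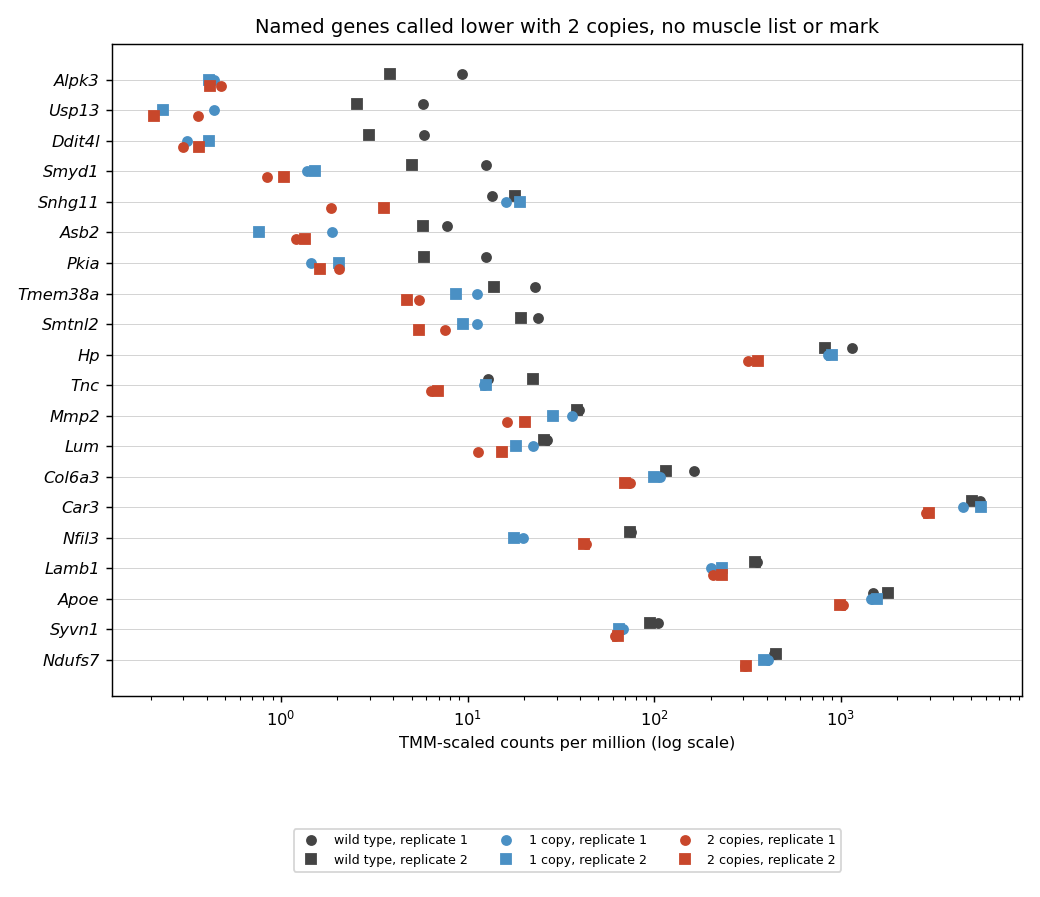
TMM-scaled CPM (x axis, log scale) of 20 named genes that fell and are no muscle gene, ordered by the depth of the fall; circles are replicate 1, squares replicate 2, and colours are the genotypes. In Alpk3, Usp13, Ddit4l and Pkia the 1-copy libraries lie with the 2-copy libraries, while in Snhg11, Hp, Car3 and Apoe they lie with wild type.

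The 62 higher genes that were no muscle gene had a median log2 rise of 0.80, beside a median of -0.95 over the 53 lower genes that were no muscle gene. Adcy3, an adenylyl cyclase, had 393 and 366 CPM in wild type, 235 and 214 with 1 copy, and 601 and 627 with 2 copies (log2 rise 0.69, SE 0.10, adjusted p = 0.0316, edgeR). Its 1-copy libraries were the lowest of the 6, and the difference of 2 copies from 1 copy was called (adjusted p = 0.00199). Pde7b, a phosphodiesterase of cyclic AMP, had 34.9 and 24.6 CPM in wild type, 40.1 and 31.0 with 1 copy and 83.2 and 71.5 with 2 copies (log2 rise 1.39, SE 0.20, adjusted p = 0.0332, edgeR). Hcn2, a cation channel gated by voltage and cyclic AMP, had 7.82 and 6.27 CPM in wild type, 3.81 and 4.16 with 1 copy, and 21.9 and 14.3 with 2 copies (log2 rise 1.37, SE 0.24, adjusted p = 0.0427, edgeR). All 3 were highest in the 2-copy libraries.

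Alox12, the arachidonate 12-lipoxygenase, had 1.26 and 1.20 CPM in wild type, 2.31 and 2.58 with 1 copy and 4.97 and 6.07 with 2 copies (log2 rise 2.17, SE 0.27, adjusted p = 0.0241, edgeR). Ephx2, the soluble epoxide hydrolase that turns epoxides of fatty acids into diols, had 443 and 344 CPM in wild type, 330 and 355 with 1 copy and 664 and 654 with 2 copies (log2 rise 0.74, SE 0.13, adjusted p = 0.0423, edgeR). Its 1-copy libraries lay with wild type, whereas those of Alox12 lay between. Ddhd2, a lipase known for hydrolysing triglycerides in brain, had 320 and 293 CPM in wild type, 223 and 224 with 1 copy and 447 and 452 with 2 copies (adjusted p = 0.0404, edgeR). St3gal5, the sialyltransferase that makes the ganglioside GM3, had 40.6 and 43.5 CPM in wild type, 35.8 and 30.0 with 1 copy and 78.4 and 113 with 2 copies (log2 rise 1.19, SE 0.18, adjusted p = 0.0332, edgeR). No gene of the lists of lipogenesis (22 tested, median log2 difference 0.13) or fatty acid oxidation (23 tested, median 0.12) was called by edgeR, where 5 in each were higher and 2 in each lower at an unadjusted p under 0.05 (9.14% and 9.15% of all genes). Called genes of lipid metabolism also fell, for example Pla2g16, an adipocyte phospholipase, from 359 and 313 CPM to 213 and 220 (adjusted p = 0.0405, edgeR), and Enpp2, the enzyme autotaxin, from 149 and 167 to 93.2 and 90.4 (adjusted p = 0.0316, edgeR), both chosen after their values were seen.

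Vascular genes gave 1 call among the 14 endothelial markers, beside 0.47% of all genes called higher. Kdr, the receptor VEGFR2 for vascular endothelial growth factor, had 252 and 282 CPM in wild type, 326 and 288 with 1 copy and 418 and 424 with 2 copies (log2 rise 0.66, SE 0.11, adjusted p = 0.0372, edgeR). The list's median was 0.25, with 7 genes higher and 0 lower at an unadjusted p under 0.05 (9.14% and 9.15% of all genes), and its sum was 1320 and 1420 CPM in wild type, 1750 and 1540 with 1 copy and 1780 and 1710 with 2 copies. Pecam1, a general endothelial marker, had 145 and 163 CPM in wild type and 195 and 177 with 2 copies and was not called (adjusted p = 0.273). Efnb2, the ligand ephrin-B2 of arterial endothelium, had 21.1 and 15.7 CPM in wild type, 29.9 and 26.1 with 1 copy and 43.2 and 47.5 with 2 copies (log2 rise 1.31, SE 0.16, adjusted p = 0.0241, edgeR). Myct1, known from endothelial cells, had 9.64 and 7.22 CPM in wild type, 22 and 21.8 with 1 copy and 18.9 and 22.5 with 2 copies (log2 rise 1.31, SE 0.18, adjusted p = 0.0299, edgeR). The 1-copy libraries thus lay between the other groups for Efnb2 and at the 2-copy level for Myct1. Among rises chosen after their values were seen, Eng, a co-receptor of TGF-beta family ligands on endothelium, had 154 and 137 CPM against 228 and 230 (adjusted p = 0.0372, edgeR), and Unc5b, a netrin receptor of vessels, 25.7 and 26.0 against 43.9 and 46.9 (adjusted p = 0.0303, edgeR).

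Clock output genes moved in both directions. Nfil3, a repressor at D-box sites, had 75.0 and 74.5 CPM in wild type, 19.9 and 17.8 with 1 copy, and 42.9 and 42.2 with 2 copies (log2 difference -0.81, SE 0.10, adjusted p = 0.0241, edgeR). Hlf, an activator at the same kind of site, had 19.6 and 22.1 CPM in wild type, 54.7 and 56.3 with 1 copy, and 33.3 and 35.3 with 2 copies (log2 rise 0.71, SE 0.11, adjusted p = 0.0332, edgeR). In both genes the 1-copy libraries, not the 2-copy libraries, stood farthest from wild type. Dbp, another D-box activator whose RNA swings widely over the day, had 2.85 and 4.51 CPM in wild type, 65.8 and 75.6 with 1 copy and 7.48 and 7.37 with 2 copies, and its difference between 2 copies and wild type was not called (adjusted p = 0.0736, edgeR). Of the 19 clock genes, 1 rose and 1 fell (0.47% and 0.82% of all genes). At an unadjusted p under 0.05, 5 were higher and 2 lower (9.14% and 9.15% of all genes). The labels give no hour beyond the morning, and the part of sampling time was not tested.

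Slc6a6, the taurine transporter, had 147 and 119 CPM in wild type, 215 and 216 with 1 copy and 364 and 263 with 2 copies (log2 rise 1.23, SE 0.17, adjusted p = 0.0316, edgeR). Tjp3, the tight junction scaffold ZO-3, had 3.08 and 2.84 CPM in wild type, 3.19 and 2.17 with 1 copy and 8.86 and 9.23 with 2 copies (log2 rise 1.62, SE 0.24, adjusted p = 0.0332, edgeR). The 1-copy libraries lay between the groups for Slc6a6 and with wild type for Tjp3. Fzd6, a Wnt receptor, had 7.19 and 6.24 CPM in wild type, 17.5 and 13.6 with 1 copy and 19.4 and 13.9 with 2 copies (log2 rise 1.31, SE 0.22, adjusted p = 0.0385, edgeR). Alpl, the tissue-nonspecific alkaline phosphatase that in brown fat is known for splitting phosphocreatine, had 24.8 and 22.1 CPM in wild type, 24.9 and 19.8 with 1 copy and 49.9 and 39.8 with 2 copies. It was the 1 called gene of 12 tested in the list of futile cycles and calcium (log2 rise 0.94, SE 0.16, adjusted p = 0.0403, edgeR). Of all genes 0.47% were called higher. At an unadjusted p under 0.05 the list had 4 genes higher and 3 lower (9.14% and 9.15% of all genes).

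Neat1, the noncoding RNA that builds nuclear paraspeckles, was the most abundant gene that rose. It had 1090 and 1170 CPM in wild type, 980 and 1120 with 1 copy and 1840 and 1880 with 2 copies (log2 rise 0.72, SE 0.10, adjusted p = 0.0316, edgeR, and 0.0162 against 1 copy). Cpne5, a copine that binds membranes in the presence of calcium, had the steepest rise, from 0.399 and 0.0315 CPM to 4.97 and 3.22 (log2 rise 4.5, SE 0.73, adjusted p = 0.0385, edgeR), on few reads in wild type. With 1 copy Cpne5 had 0.437 and 0.351 CPM. It passed the low count filter through the 2-copy libraries alone, so only a rise could be found for it. Fhdc1, a formin-related protein, had 9.24 and 6.84 CPM in wild type and 20.9 and 30.0 with 2 copies, and Ttc25, a ciliary protein, 12.9 and 9.27 against 34.8 and 30.7. Fam84b had 12.1 and 11.2 CPM in wild type, 27.5 and 26.2 with 1 copy and 21.9 and 35.7 with 2 copies, so that both transgenic groups stood above wild type. Its log2 rise was 1.31 (SE 0.22, adjusted p = 0.0429, edgeR).

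**Figure D5:**
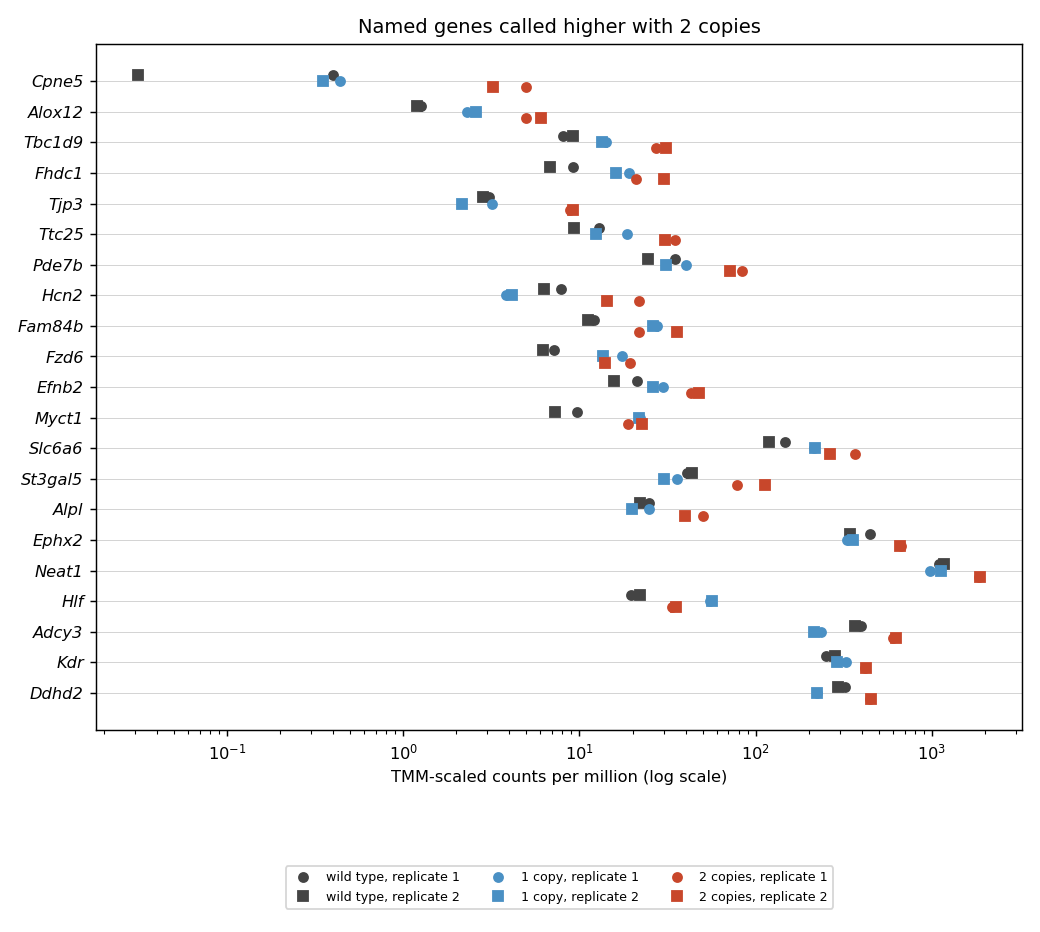
TMM-scaled CPM (x axis, log scale) of the 21 named genes that rose, ordered by the size of the rise; circles are replicate 1, squares replicate 2, and colours are the genotypes. The 1-copy libraries lie with wild type or lower in Neat1, Adcy3, Ddhd2, Tjp3 and St3gal5, and with the 2-copy libraries in Fam84b, Fzd6 and Myct1.

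Of the 48 named genes that were called, Tbc1d9, Pvalb and Myh7 (3 in all) were called in each of the 6 fits that left out 1 library. Against 1 copy, 2 copies differed in 262 genes (1.95%) in the same fit. Both contrasts share the 2-copy libraries, so they are given side by side for each gene and not counted together.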

How the data were processed

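Groups were taken from tissue and genotype in the labels, and replicate numbers follow the order of the samples. The authors deposited raw read counts per gene, made with STAR and featureCounts (Subread) on mm10 per the submitters' processing notes, from Trizol and RNeasy RNA and a stranded mRNA kit per the labels. Versions, annotation and strand setting were not given in the sources used here. The 24541 rows included Cre.

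The 6 brown libraries were fitted together (filterByExpr, TMM, 13414 genes, 3 residual degrees of freedom, common coefficient of biological variation 0.148) in R 4.3.3 with edgeR 4.0.16 (robust quasi-likelihood test, two-sided, Benjamini-Hochberg, threshold 0.05). DESeq2 1.42.0 gave an alternative, and Python 3.11.15 with matplotlib 3.10.9 the figures. SE is the log2 difference divided by the square root of F. Where a group was at 0, a fold is a bound with 3 counts over the group. Depth ran from 15679884 to 31814056 counts per library, and bounds cover counting error only. The fit was tested on simulated counts with the same spread for all genes and no difference in muscle RNA. That test does not cover the muscle RNA of the wild type libraries, and its outcome is not given here.

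Named genes were Cre, Ucp1, Tbc1d9 and Elmod2, and among called genes with a mean log2 CPM of at least 1, no overlap and a plain symbol the 14 largest rises, the 10 largest falls outside muscle genes, the 6 largest among muscle genes, the 5 most abundant rises and non-muscle falls, and up to 3 called members of each of 27 other lists. The result of 1 gene taken by this rule is not reported here. The members, lists and tests were chosen with earlier results of these data known. Positions and promoters come from RefSeq on GRCm38.p6, where 13383 of 13414 tested genes had a position. Alternatives were other scaling, DESeq2, other filters, each library left out, other sets of libraries, a fold of 1.5, and ways to allow for muscle RNA.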

Additional observations from a re-analysis of the deposited data

How the results depend on the processing

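Total calls (173 in the reported fit) were 683 with DESeq2, 353 with no filter on low counts, 10 in the 4 compared libraries alone, 28 against a fold of 1.5, 4 with the fast muscle list as a covariate and 95 with muscle genes removed. Leaving out 1 library gave 8 to 334. Higher calls (63) were 321, 150, 1, 2 and 2 under the first 5 of these, 110 with all 12 libraries, and 3 to 139 with 1 library left out. Lower calls (110) were 362, 203, 9, 26 and 2, 46 with muscle genes removed, and 2 to 195. Lower calls outside muscle genes (53) were 275, 128, 0, 4 and 2, 97 with all 12 libraries, and 0 to 129. Called members of the other lists (12) were 70, 35, 1, 1 and 0, and 1 to 31. Called members of the muscle lists (42) were 7 in the 4 libraries, 14 with all 12, 15 against a fold of 1.5, 0 with the covariate, and 2 to 68. With muscle genes removed that count is empty by construction. Median-of-ratios scaling left each of these 6 counts within 1.5 times.

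The covariate is nearly the wild type group itself. With it the log2 difference turned to -15.54 for Cre, -3.80 for Elmod2, 4.01 for Alpk3, 3.38 for Usp13, 2.32 for Ddit4l, 5.04 for Smyd1, 0.61 for Asb2, 4.22 for Pkia, 2.58 for Tmem38a, 0.05 for Smtnl2, -0.24 for Kdr, 1.42 for Hp, -0.29 for Hlf, 0.27 for Syvn1 and 2.05 for Col6a3, none called. A straight line to no muscle RNA through the 2 wild type libraries was added after seeing the data and with no test. It turned the log2 difference to 0.64 for Usp13 and 1.05 for Pkia. For Alpk3 and Smyd1 its wild type value was negative and gave no fold. That value stayed above the 2-copy mean for Hp (586 against 339 CPM), Asb2 (4.24 against 1.27) and Smtnl2 (15.8 against 6.52). The same held for Tmem38a (7.28 against 5.08), Ddit4l (0.852 against 0.331), Syvn1 (87.7 against 62.7) and Col6a3 (80.8 against 72.1). The cause of these shifts was not tested. Calls of 2 copies against 1 copy (262) and genes with the mark among the lower calls (49) stayed within 1.5 times under the alternatives run for them. With 2 libraries a group, fits that leave 1 library in a group borrow its spread from the rest, and low counts limit genes such as Cpne5. No paired analysis was possible because library numbers in the labels do not tie the genotypes to each other.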

Other observations

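The thermogenic brown adipocyte list held no edgeR call among 26 genes, with 11 higher and 1 lower at an unadjusted p under 0.05 (9.14% and 9.15% of all genes) and a median log2 difference of 0.26 between 2 copies and wild type. Elovl3, which lengthens long-chain fatty acids, had 101 and 58.8 CPM in wild type, 55.2 and 41.5 with 1 copy, and 284 and 433 with 2 copies. Its adjusted p was 0.0716 against wild type and 0.0408 against 1 copy (edgeR). Dio2, which activates thyroid hormone, had 548 and 677 CPM in wild type, 169 and 72.8 with 1 copy, and 588 and 535 with 2 copies (adjusted p = 0.906 against wild type, edgeR). In Dio2 the 1-copy libraries stood apart and the other 2 groups overlapped.

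Cholesterol synthesis genes gave no edgeR call among 22 tested, with 10 higher and 1 lower at an unadjusted p under 0.05 (9.14% and 9.15% of all genes) and a median of 0.34. Hmgcs1, which makes HMG-CoA, had 423 and 382 CPM in wild type, 284 and 273 with 1 copy, and 555 and 533 with 2 copies (adjusted p = 0.0809 against wild type and 0.00806 against 1 copy, edgeR). The summed list had 1430 and 1490 CPM in wild type, 1400 and 1320 with 1 copy, and 1800 and 2050 with 2 copies, the highest of the 6.

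Macrophage genes gave no edgeR call among 17 tested (0 higher and 4 lower at an unadjusted p under 0.05, beside 9.14% and 9.15% of all genes), with a sum of 313 and 307 CPM in wild type, 382 and 443 with 1 copy, and 261 and 232 with 2 copies.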
